A study of Homo sapiens with 9 samples.

Results

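Distal chromosome 10q was examined gene by gene in HCT116 stable cells that express either isoform of Tazarotene-induced gene 1 (TIG1). The members are the measured genes of chromosome 10 that start at or beyond 119.2 Mb (GRCh38), up to the end of the long arm. Each gene was read from its brightest probe set that reached the array median on at least 2 of 3 arrays of a group. The array held 95 such genes with a single symbol, of which 64 passed this filter and 31 did not. GRK5, RGS10, FGFR2, BNIP3 and MKI67 were left out by name, which left 59 members among 13396 genes measured on the arrays. The stretch was selected on its raised intensities in TIG1A stable cells against control cells, so the values of that comparison are given as a description, with the adjusted p of single genes from the fit over all probe sets. The TIG1A and control arrays also enter the other comparisons, which are not independent of that choice.

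The end of the long arm of chromosome 10 is gene-rich and its members share no single pathway. They include the DNA repair enzyme gene MGMT, the spindle checkpoint gene BUB3, subunits and regulators of phosphatases, enzymes of fatty acid, ornithine and polyamine breakdown, and co-chaperones. Copy number and chromatin state were not measured on these arrays. Fewer cells of a type and less RNA per cell cannot be told apart in such bulk RNA.

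HCT116 is a human colon cancer cell line. Of the 9 Affymetrix HG-U133 Plus 2.0 arrays, 3 each came from TIG1A, TIG1B and control stable cells. All 3 lines carried the pSwitch plasmid of the GeneSwitch system, from which a regulatory protein that responds to mifepristone (MFP) is made, and pGene/V5 with the TIG1A insert, the TIG1B insert or no insert. All were given 5 nM MFP for 24 h, so that the control cells had received the inducer too. Each group was a single stable clone with 3 biological replicates, so the TIG1 isoform and other differences between the clones cannot be told apart. Signal intensities are linear and had been scaled by the authors to a target of 500 on each array.

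The labels and the tissue were checked first. RARRES1, the gene of TIG1, had intensities of 58452 to 66754 in TIG1A cells and 36413 to 44513 in TIG1B cells, against 2.90 to 5.17 in control cells, on one of its probe sets. Of 8 colon epithelial markers, 7 passed the filter and CDX1 did not. None of 4 fibroblast markers passed. Of 3 leukocyte markers on the array CD3E passed, whereas PTPRC and CD14 did not, and the summed intensity of the 3 was 52 to 58 in TIG1A cells, 86 to 145 in TIG1B cells and 81 to 164 in control cells. Of 3 endothelial markers PECAM1 passed, whereas VWF and CDH5 did not, and the sum was 93 to 141 in TIG1A cells, 122 to 178 in TIG1B cells and 169 to 244 in control cells. The ratio of the 3' to the 5' probe sets of GAPDH was 1.00 on TIG1A replicate 1 and 1.01 on TIG1B replicate 1, 0.899 to 0.905 on the other TIG1 arrays and 0.924 to 0.950 on control arrays. The same ratio of actin was 1.13 to 1.21 in TIG1A cells, 1.12 to 1.23 in TIG1B cells and 1.21 to 1.27 in control cells. The part of these markers and ratios in the results was not tested.

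The sequences upstream of 4 genes that rose in TIG1A cells are shown because they lie along the stretch and differ in composition. They are the 150 bases before the annotated transcription start (RefSeq, GRCh38.p14), read 5′ to 3′ on the strand of the gene, with each GC box (GGGCGG, on either strand) in capitals. The window of NSMCE4A is chr10:121975218-121975367 on the minus strand, that of PPP2R2D chr10:131900858-131901007 on the plus strand, that of DPYSL4 chr10:132186798-132186947 on the plus strand and that of ECHS1 chr10:133373355-133373504 on the minus strand.
NSMCE4A: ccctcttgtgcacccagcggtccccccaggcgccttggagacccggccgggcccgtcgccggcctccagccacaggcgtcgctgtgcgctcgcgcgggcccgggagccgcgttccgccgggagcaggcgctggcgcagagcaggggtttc
PPP2R2D: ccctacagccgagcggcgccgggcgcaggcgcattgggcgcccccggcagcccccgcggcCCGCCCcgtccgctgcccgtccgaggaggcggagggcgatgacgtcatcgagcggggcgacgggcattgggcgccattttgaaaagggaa
DPYSL4: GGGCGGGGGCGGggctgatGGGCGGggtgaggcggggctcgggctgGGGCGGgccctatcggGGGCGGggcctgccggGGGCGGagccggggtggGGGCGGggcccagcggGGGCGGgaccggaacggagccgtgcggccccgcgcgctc
ECHS1: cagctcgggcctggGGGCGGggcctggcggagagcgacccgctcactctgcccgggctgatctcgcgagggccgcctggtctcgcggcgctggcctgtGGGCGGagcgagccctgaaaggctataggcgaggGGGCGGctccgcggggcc
NSMCE4A has no GC box in this window, PPP2R2D has 1, ECHS1 has 3 and DPYSL4 has 8. They hold 20, 23, 18 and 21 CpG dinucleotides in the order NSMCE4A, PPP2R2D, ECHS1 and DPYSL4. Promoter sequence was found for 50 of the 59 members. BCCIP, BUB3, EDRF1, EDRF1-DT, GLRX3, INPP5A, PAOX, PWWP2B and UROS had no entry. Over windows of 300 bases, from 250 before to 50 after the most upstream start, 30 of these 50 members held a GC box, against 68.1% of the measured genes with an entry and 44.5% of all genes in the table. The median number of CpG dinucleotides in that window was 28.5 for the members and 26.0 for all measured genes. It was 36.0 for the distal members from PPP2R2D on, 29.0 for the middle members from CHST15 to GLRX3 and 23.0 for the proximal members. A match to these letters is a description and not a binding site.

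Across the stretch, intensities in TIG1A cells were higher than in control cells at most members. The median log2 difference of the 59 members was 0.291, against -0.031 for all measured genes and -0.020 for the 475 other measured genes of chromosome 10. It was -0.029 for the 59 measured genes that lie just before the stretch. Of those neighbours, 4 rose and 2 fell in the limma test described below, against 3.38% and 3.63% of all genes. ARL3, BBIP1, HSPA12A and PDZD8 rose, by 0.67 to 1.85, and PDCD11 and DUSP5 fell, with differences of -0.75 and -1.59. A total of 45 of 59 members lay above 0, against 47.7% of all genes. The median difference between TIG1A and TIG1B cells was 0.363, against 0.002 for all genes, with 48 of 59 members above 0 (against 50.2% of all genes). The median difference between TIG1B and control cells was 0.002, against -0.011 for all genes, with 30 of 59 members above 0 (against 48.8% of all genes). No test was made of these medians, because the stretch was chosen with the values known.

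The same pattern was seen on each array. Taken as the deviation of each member from its mean over the 9 arrays, the median of the members was 0.291, 0.230 and 0.219 on the TIG1A arrays. It was -0.087, -0.139 and -0.143 on the TIG1B arrays and -0.089, -0.020 and -0.151 on the control arrays. All 3 TIG1A arrays thus lay above the 6 others, which overlapped, and the SD within groups was 0.047. The stretch was chosen on the TIG1A and control arrays, so nothing is read from this separation.

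**Figure D1:**
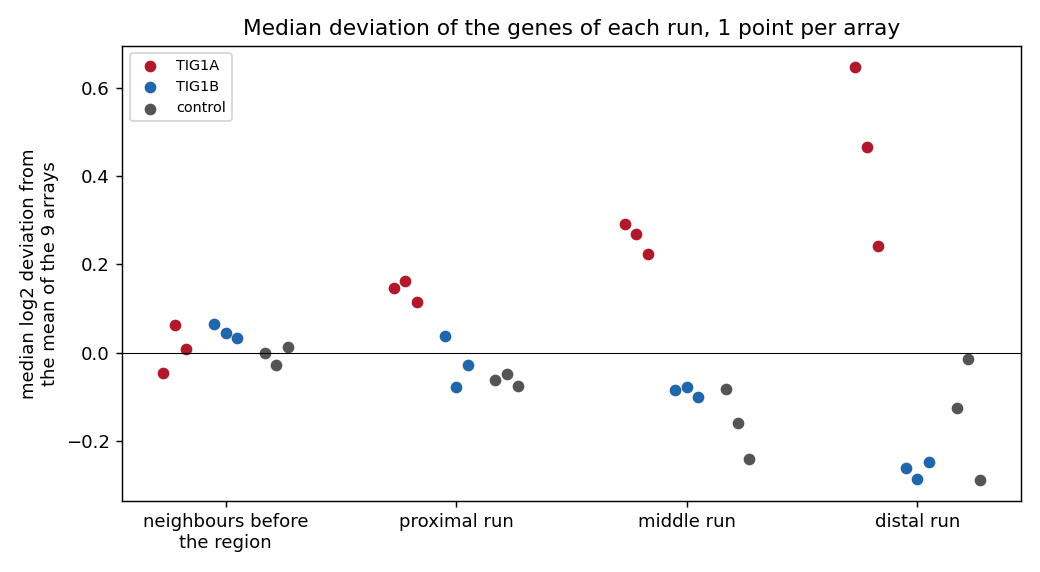
Median log2 deviation from the mean of the 9 arrays (vertical axis) of the 59 neighbouring genes before the stretch and of the proximal, middle and distal members (horizontal axis), with 1 point per array for TIG1A, TIG1B and control cells. In the distal members the TIG1A arrays lie at 0.242 to 0.648 and the TIG1B arrays at -0.285 to -0.247, whereas the neighbours lie between -0.046 and 0.066 on all arrays.

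The median difference between TIG1A and control cells was smallest in the proximal members and largest in the distal members. Ordered by position, the 20 proximal members (TIAL1 to CPXM2, 119.6 to 123.9 Mb) had a median log2 difference between TIG1A and control cells of 0.240. The 20 middle members (CHST15 to GLRX3, 124.0 to 130.2 Mb) had 0.419 and the 19 distal members (PPP2R2D to CYP2E1, 131.9 to 133.5 Mb) had 0.747. Between TIG1A and TIG1B cells the medians were 0.242, 0.366 and 0.722 in the same order. Between TIG1B and control cells they were 0.025, 0.098 and -0.177.

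The distal members were not uniform. The 13 protein-coding genes from PPP2R2D to PAOX had a median of 0.967 between TIG1A and control cells, and 12 of them lay above 0 (against 47.7% of all genes). The 13 had a median of 0.919 between TIG1A and TIG1B cells and of 0.004 between TIG1B and control cells. The last 4 members, MTG1, SPRN, SCART1 and CYP2E1, had a median of -0.164 between TIG1A and control cells. This division at PAOX was made after the values were seen. Just inside the proximal boundary TIAL1 differed by -0.42 and BAG3 by 0.27 between TIG1A and control cells, and just outside it SFXN4 differed by -0.28 and PRDX3 by -0.06.

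**Figure D2:**
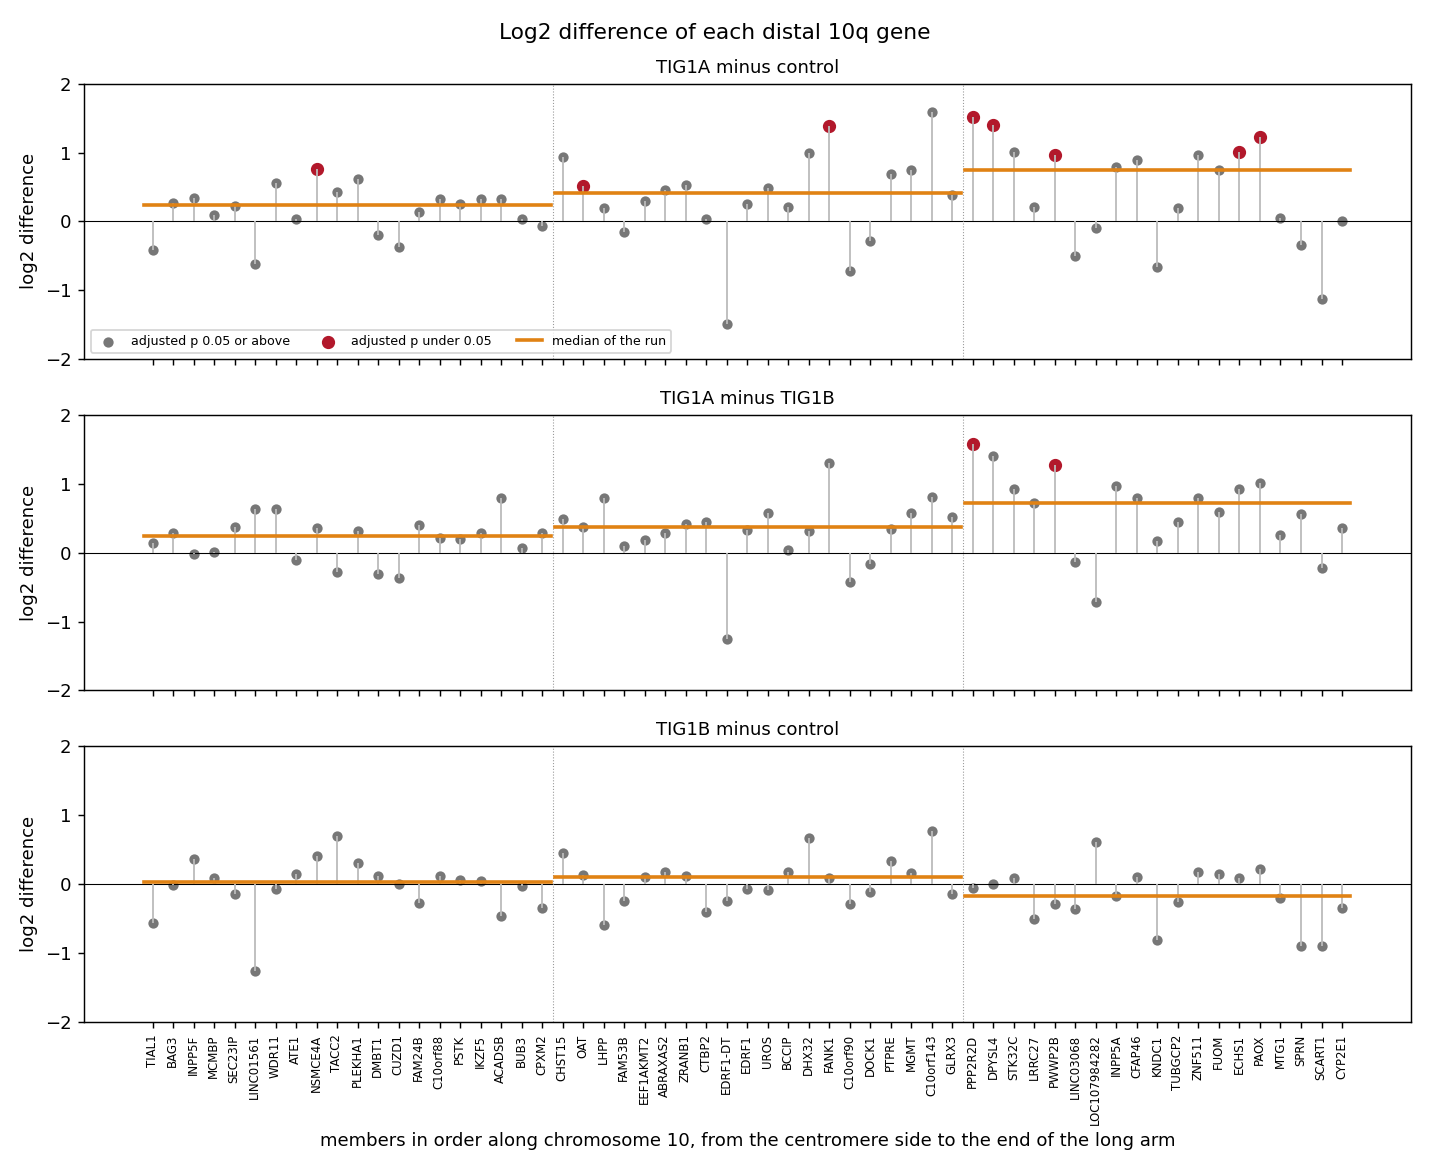
Log2 difference (vertical axis) of each of the 59 members in order along chromosome 10 (horizontal axis), for TIG1A minus control, TIG1A minus TIG1B and TIG1B minus control; red points passed an adjusted p of 0.05 and orange bars are the medians of the proximal, middle and distal members. The orange bars of the first panel lie at 0.240, 0.419 and 0.747, and those of the last panel lie between -0.177 and 0.098.

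With limma's test over all 29977 kept probe sets and Benjamini-Hochberg adjustment, 8 of the 59 members (13.6%) rose in TIG1A cells relative to control cells, namely NSMCE4A, OAT, FANK1, PPP2R2D, DPYSL4, PWWP2B, ECHS1 and PAOX. Of all measured genes 3.38% rose in that comparison. None of the members fell, against 3.63% of all genes, and 1 member lay below 0 at an unadjusted p under 0.05 (against 14.6% of all genes), with 23 above 0 (against 13.2%). ECHS1 and PAOX are also in the study's own table for TIG1A cells, which was drawn from these arrays. The intensities of TIG1A and control cells did not overlap at 27 members that were higher (45.8%, against 16.3% of all genes) and at 3 that were lower (against 17.9%). The stretch was chosen from this comparison, so nothing is read from these shares. The number that rose depended on single arrays. It was 3, 0 and 0 without TIG1A replicate 1, 2 or 3, 6, 3 and 4 without TIG1B replicate 1, 2 or 3, and 12, 2 and 4 without control replicate 1, 2 or 3, while the share of all genes that rose ran from 0.478% to 6.17%.

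Relative to TIG1B cells, 2 members rose in TIG1A cells, PPP2R2D and PWWP2B (3.39%, against 0.358% of all genes). None fell, against 0.231% of all genes, and none lay below 0 at an unadjusted p under 0.05, against 7.32% of all genes. In this comparison 21 members lay above 0 at an unadjusted p under 0.05, against 7.68% of all genes. The intensities did not overlap at 34 members that were higher in TIG1A cells (57.6%, against 14.2% of all genes) and at 2 that were lower (against 14.2%). The 34 include C10orf143, which passed the filter only through TIG1A cells. The TIG1A arrays were used to choose the stretch, so nothing is read from these shares. No member was called without any 1 of the 6 TIG1A and TIG1B arrays, where 0% to 0.0448% of all genes were called higher. PWWP2B alone was called without control replicate 3, against 0.373% of all genes.

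No member changed between TIG1B and control cells in limma's test. Of all genes 0.642% rose and 1.21% fell in that comparison. At an unadjusted p under 0.05, 4 members lay above 0 (against 8.60% of all genes) and 4 below it (against 11.3%). The intensities did not overlap at 5 members that were higher in TIG1B cells (8.47%, against 12.2% of all genes) and at 5 that were lower (against 14.6%). Without control replicate 1, DHX32 alone was called higher, against 1.88% of all genes.

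**Figure D3:**
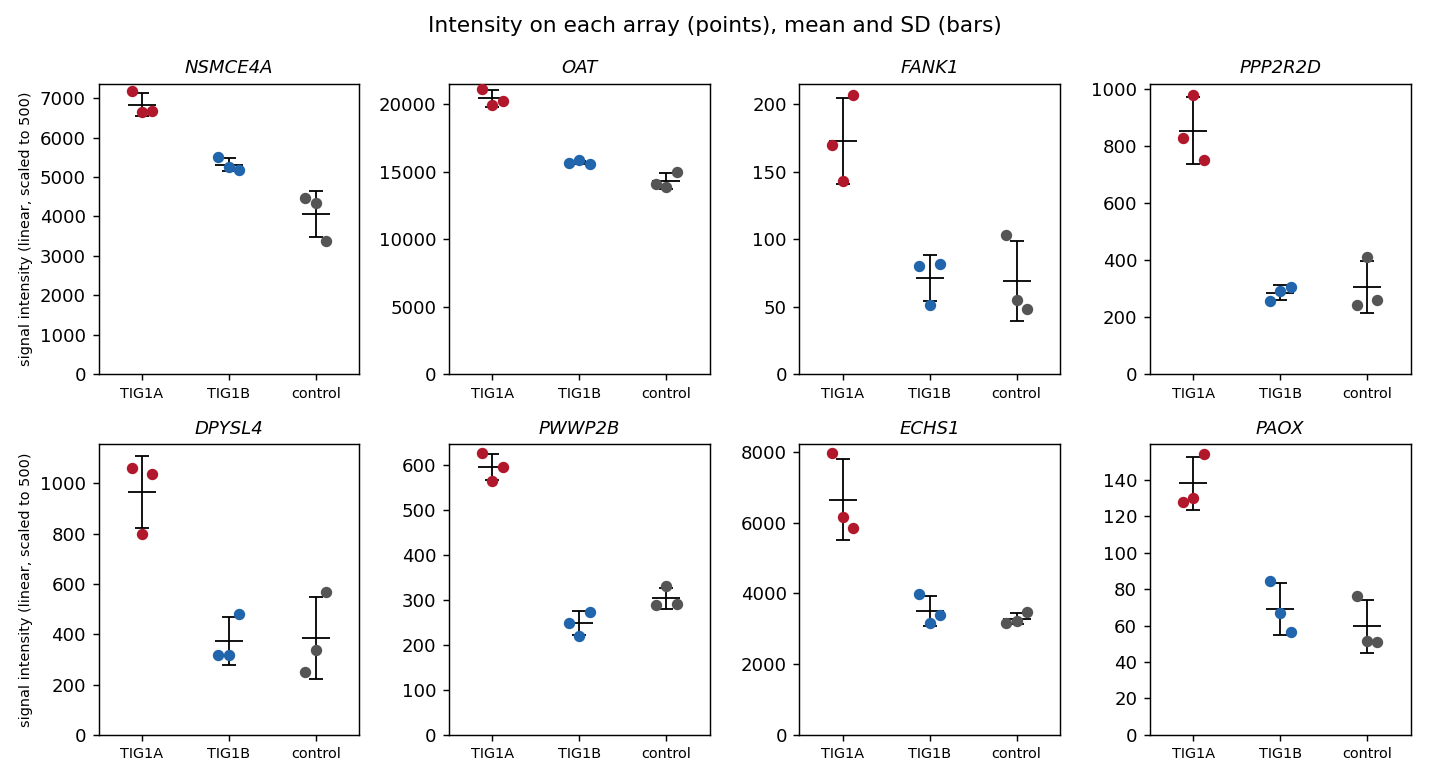
Signal intensity on a linear scale (vertical axis) on each array of TIG1A, TIG1B and control cells for the 8 members that rose in TIG1A cells relative to control cells; bars are the mean and SD of 3 arrays. The lowest TIG1A array lies above the highest TIG1B and control arrays in all 8 panels, for example at 565 against 331 or below for PWWP2B. The 8 were picked as higher on these same arrays, so nothing is read from this separation.

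Among the phosphatases, kinases and signal adaptors, 7 of 10 members lay above 0 between TIG1A and control cells, with a median of 0.572, and 1 rose. Of all genes 47.7% lay above 0 and 3.38% rose there. The stretch was chosen from this comparison, so nothing is read from the counts by role, here or below. PPP2R2D encodes a regulatory B subunit of protein phosphatase 2A. It had intensities of 830, 981 and 751 in TIG1A cells, 256, 293 and 306 in TIG1B cells and 244, 411 and 261 in control cells. The TIG1A arrays did not overlap with the others, and the TIG1B and control arrays overlapped. It rose 2.86-fold in TIG1A cells relative to control cells (log2 difference 1.51, SE 0.22, adjusted p = 0.0148) and 2.99-fold relative to TIG1B cells (1.58, SE 0.22, adjusted p = 0.0370). A second, dimmer probe set of PPP2R2D did not follow. It had 117, 73.7 and 182 in TIG1A cells against 107, 178 and 121 in control cells (log2 difference -0.19, adjusted p = 0.782). The annotated span of PPP2R2D overlaps by 3850 bases with that of BNIP3 on the opposite strand, and BNIP3 had 8425, 9371 and 9671 in TIG1A cells, 3212, 4184 and 4123 in TIG1B cells and 2742, 2363 and 2577 in control cells. The part of that overlap in the value of PPP2R2D was not tested.

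INPP5A encodes a phosphatase that removes a phosphate from inositol trisphosphate. It had 2289, 1701 and 1627 in TIG1A cells, 952, 898 and 984 in TIG1B cells and 858, 1219 and 1163 in control cells. The TIG1A arrays lay above all others, but the difference from control cells did not pass (log2 difference 0.79, SE 0.19, adjusted p = 0.0541), nor did that from TIG1B cells (0.97, adjusted p = 0.102). PLEKHA1, a phosphoinositide-binding adaptor, had 4341, 5227 and 4886 in TIG1A cells, 3547, 4235 and 3887 in TIG1B cells and 3714, 2819 and 2963 in control cells (TIG1A minus control 0.61, SE 0.16, adjusted p = 0.0627). Only the TIG1B arrays overlapped with control arrays. ZRANB1, a deubiquitinase placed in this group for its role in Wnt signalling, had 2240, 2433 and 2119 in TIG1A cells, 1533, 1945 and 1613 in TIG1B cells and 1765, 1462 and 1482 in control cells (TIG1A minus control 0.53, SE 0.15, adjusted p = 0.0791). The other members of the group, INPP5F, FAM53B, DOCK1, PTPRE, STK32C and KNDC1, did not pass in any comparison, and their differences between TIG1A and control cells ran from -0.66 for KNDC1 to 1.01 for the kinase gene STK32C.

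The genes of DNA repair, replication and cell division all lay above 0 between TIG1A and control cells (9 of 9, median 0.421), and 1 of them rose. Over all genes 47.7% lay above 0 and 3.38% rose. NSMCE4A encodes a subunit of the SMC5-SMC6 complex, which acts in DNA repair. It had 7180, 6650 and 6678 in TIG1A cells, 5506, 5267 and 5173 in TIG1B cells and 4469, 4341 and 3389 in control cells. The 3 groups did not overlap and TIG1B cells were intermediate. The rise in TIG1A cells was 1.69-fold relative to control cells (log2 difference 0.76, SE 0.14, adjusted p = 0.0293). The difference between TIG1B and control cells was 0.40 (adjusted p = 0.202) and that between TIG1A and TIG1B cells was 0.36 (adjusted p = 0.342). A second probe set of NSMCE4A of like brightness gave 0.51 between TIG1A and control cells (adjusted p = 0.135), and a pair of dim ones gave 0.10 and 0.09.

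TACC2, a centrosomal coiled-coil protein gene, had its highest intensities in TIG1B cells. It had 606, 668 and 784 in TIG1A cells, 865, 816 and 807 in TIG1B cells and 558, 556 and 427 in control cells. The 3 groups did not overlap, and the difference between TIG1B and control cells was 0.70 (SE 0.16, adjusted p = 0.0804). Its other probe set went the other way, with a difference of -0.44 between TIG1B and control cells (adjusted p = 0.319). ABRAXAS2, the scaffold of a deubiquitinating complex, had 2181, 2277 and 2012 in TIG1A cells, 1980, 1711 and 1624 in TIG1B cells and 1579, 1586 and 1547 in control cells (TIG1A minus control 0.46, SE 0.13, adjusted p = 0.0796). Again the 3 groups were ordered without overlap. TUBGCP2, a component of the gamma-tubulin complex, had 1136, 1000 and 1097 in TIG1A cells, 841, 690 and 841 in TIG1B cells and 850, 1072 and 921 in control cells, and TIG1A and control cells overlapped (0.19, adjusted p = 0.468). The DNA repair enzyme gene MGMT had 674, 719 and 647 in TIG1A cells, 431, 437 and 497 in TIG1B cells and 592, 274 and 410 in control cells (TIG1A minus control 0.75, SE 0.26, adjusted p = 0.128). The range of the control arrays of MGMT spanned all TIG1B arrays. BUB3, MCMBP, BCCIP and CFAP46 did not pass either, with differences between TIG1A and control cells from 0.03 for BUB3 to 0.89 for CFAP46, which encodes a ciliary protein.

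All 11 mitochondrial and metabolic enzyme genes lay above 0 between TIG1A and control cells (median 0.382), and 3 of them rose. Over all genes 47.7% lay above 0 and 3.38% rose. All 11 also lay above 0 between TIG1A and TIG1B cells (median 0.569), against 50.2% of all genes. None of the 11 passed there, where 0.358% of all genes were called higher and 0.231% lower. ECHS1 encodes the mitochondrial enoyl-CoA hydratase of fatty acid beta-oxidation. It had 7967, 6158 and 5835 in TIG1A cells, 3969, 3149 and 3386 in TIG1B cells and 3153, 3232 and 3459 in control cells. The TIG1A arrays lay clear of the rest, and TIG1B and control cells overlapped. ECHS1 rose 2.01-fold relative to control cells (log2 difference 1.01, SE 0.17, adjusted p = 0.0198), and the difference from TIG1B cells was 0.92 (SE 0.17, adjusted p = 0.0801). PAOX, a peroxisomal oxidase of acetylated polyamines, had 128, 130 and 154 in TIG1A cells, 84.2, 67.1 and 56.2 in TIG1B cells and 76.3, 51.6 and 50.7 in control cells. It rose 2.35-fold relative to control cells (1.23, SE 0.22, adjusted p = 0.0251), although 2 of 3 control arrays were below their array median. Its other kept probe sets were dimmer and gave 1.13 and -0.10, neither of which passed.

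OAT encodes ornithine aminotransferase of the mitochondrial matrix. It had 21170, 19941 and 20232 in TIG1A cells, 15681, 15844 and 15572 in TIG1B cells and 14088, 13867 and 14970 in control cells. The 3 groups did not overlap, and OAT rose 1.43-fold in TIG1A cells relative to control cells (log2 difference 0.52, SE 0.11, adjusted p = 0.0405). The difference from TIG1B cells was 0.38 (adjusted p = 0.220). FUOM, a fucose mutarotase, had 501, 419 and 373 in TIG1A cells, 302, 253 and 299 in TIG1B cells and 334, 212 and 234 in control cells (TIG1A minus control 0.75, SE 0.21, adjusted p = 0.0745). The TIG1A arrays lay above the others. CYP2E1, a cytochrome P450 that oxidises ethanol and is chiefly known from liver, was close to the array median, with 79.6, 101 and 60.4 in TIG1A cells, 60.1, 83.4 and 45.5 in TIG1B cells and 98.1, 71.1 and 68.0 in control cells. All its groups overlapped (TIG1A minus control 0.01, adjusted p = 0.986). ACADSB, LHPP, UROS, GLRX3, PSTK and MTG1 did not pass in any comparison. Their differences between TIG1A and control cells ran from 0.05 for MTG1 to 0.48 for the haem synthesis enzyme gene UROS, and between TIG1A and TIG1B cells from 0.20 for PSTK to 0.80 for ACADSB.

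Of the genes for RNA-binding, transcription and chromatin proteins, 6 of 7 lay above 0 between TIG1A and control cells (median 0.324) and 1 rose. Over all genes 47.7% lay above 0 and 3.38% rose. PWWP2B encodes a chromatin protein with a PWWP domain. It had 625, 565 and 594 in TIG1A cells, 249, 220 and 273 in TIG1B cells and 289, 331 and 290 in control cells. The 3 groups did not overlap, with TIG1B cells lowest. PWWP2B rose 1.96-fold in TIG1A cells relative to control cells (log2 difference 0.97, SE 0.14, adjusted p = 0.0143) and 2.41-fold relative to TIG1B cells (1.27, SE 0.14, adjusted p = 0.0270). The difference between TIG1B and control cells was -0.29 (adjusted p = 0.305).

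ZNF511, a zinc finger protein gene, had 1927, 1798 and 1763 in TIG1A cells, 1340, 820 and 1066 in TIG1B cells and 730, 1202 and 933 in control cells (TIG1A minus control 0.97, SE 0.24, adjusted p = 0.0544). Its TIG1A arrays lay above all others. DHX32, a helicase-like protein gene, had 1839, 1951 and 2010 in TIG1A cells, 1462, 1538 and 1648 in TIG1B cells and 1508, 867 and 709 in control cells (TIG1A minus control 0.99, SE 0.26, adjusted p = 0.0650). Control replicate 1 of DHX32 lay within the range of TIG1B cells. TIAL1, which encodes an RNA-binding protein of stress granules, lay lower in both TIG1 lines, with 5000, 5977 and 6047 in TIG1A cells, 4929, 4986 and 5466 in TIG1B cells and 6375, 7921 and 8535 in control cells. Neither line overlapped with control cells, and neither difference passed (TIG1A minus control -0.42, adjusted p = 0.152, and TIG1B minus control -0.56, adjusted p = 0.122). The dimmer probe sets of TIAL1 differed in direction and did not pass. They gave 0.40, 0.30 and -0.98 between TIG1A and control cells, and 0.21, 0.10 and -1.19 between TIG1B and control cells. CTBP2, IKZF5 and EDRF1 differed by 0.04 to 0.32 between TIG1A and control cells and did not pass. CTBP2, a transcriptional corepressor gene, had 17697, 15985 and 17956 in TIG1A cells, 13816, 12326 and 11832 in TIG1B cells and 14580, 18190 and 17752 in control cells.

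All 7 members listed under protein folding, modification and traffic lay above 0 between TIG1A and control cells (median 0.265), against 47.7% of all genes. Of the 7, 1 rose, against 3.38% of all genes. That gene, DPYSL4, encodes a cytosolic protein of the collapsin response mediator family, which is not known for folding or traffic. It had 1061, 800 and 1036 in TIG1A cells, 317, 316 and 482 in TIG1B cells and 251, 337 and 566 in control cells. The TIG1A arrays did not overlap with the others. DPYSL4 rose 2.64-fold relative to control cells (log2 difference 1.40, SE 0.32, adjusted p = 0.0452), and the difference from TIG1B cells was 1.40 (adjusted p = 0.135). Its dimmer probe sets gave 0.40 and 0.33 between TIG1A and control cells and did not pass.

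WDR11, a WD-repeat protein of membrane traffic, had 2062, 2494 and 2613 in TIG1A cells, 1348, 1718 and 1581 in TIG1B cells and 1751, 1588 and 1518 in control cells (TIG1A minus control 0.56, SE 0.16, adjusted p = 0.0767). The co-chaperone gene BAG3 had 5580, 6247 and 5535 in TIG1A cells, 4470, 4955 and 4795 in TIG1B cells and 4480, 4887 and 5074 in control cells (TIG1A minus control 0.27, SE 0.13, adjusted p = 0.235). In both genes the TIG1A arrays were the highest and TIG1B and control cells overlapped. LRRC27, a leucine-rich repeat protein gene, had 145, 114 and 117 in TIG1A cells, 95.6, 91.8 and 49.0 in TIG1B cells and 142, 108 and 81.3 in control cells (TIG1A minus TIG1B 0.72, SE 0.31, adjusted p = 0.371). SEC23IP, ATE1 and EEF1AKMT2 differed by 0.03 to 0.29 between TIG1A and control cells.

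The 5 genes of secreted and cell surface proteins did not share this direction between TIG1A and control cells. Only CHST15 lay above 0 there (against 47.7% of all genes), the median was -0.190 and none passed. Between TIG1A and TIG1B cells the median of the 5 was 0.278, with 3 above 0 (against 50.2% of all genes). DMBT1, CUZD1, CPXM2 and SPRN were dimmer than the median member. Measured genes as dim had a median of -0.138 between TIG1A and control cells. The part of brightness in this direction was not tested. CHST15, a Golgi sulphotransferase for chondroitin sulphate, had 5509, 7371 and 7381 in TIG1A cells, 2928, 6246 and 5914 in TIG1B cells and 3479, 3452 and 3567 in control cells (TIG1A minus control 0.94, SE 0.29, adjusted p = 0.0979). TIG1B replicate 1 lay below the control arrays and the other TIG1B arrays above them. SPRN, which encodes a prion-like surface protein, had 136, 98.3 and 102 in TIG1A cells, 82.9, 96.3 and 53.4 in TIG1B cells and 144, 128 and 149 in control cells. TIG1B cells lay below control cells without overlap (-0.90, SE 0.24, adjusted p = 0.110). The secreted glycoprotein gene DMBT1 and the zona pellucida-like domain gene CUZD1 had 75.3 to 170 and 70.4 to 102 in TIG1A cells against 114 to 151 and 91.4 to 128 in control cells, and the groups overlapped. CPXM2 differed by -0.07.

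**Figure D4:**
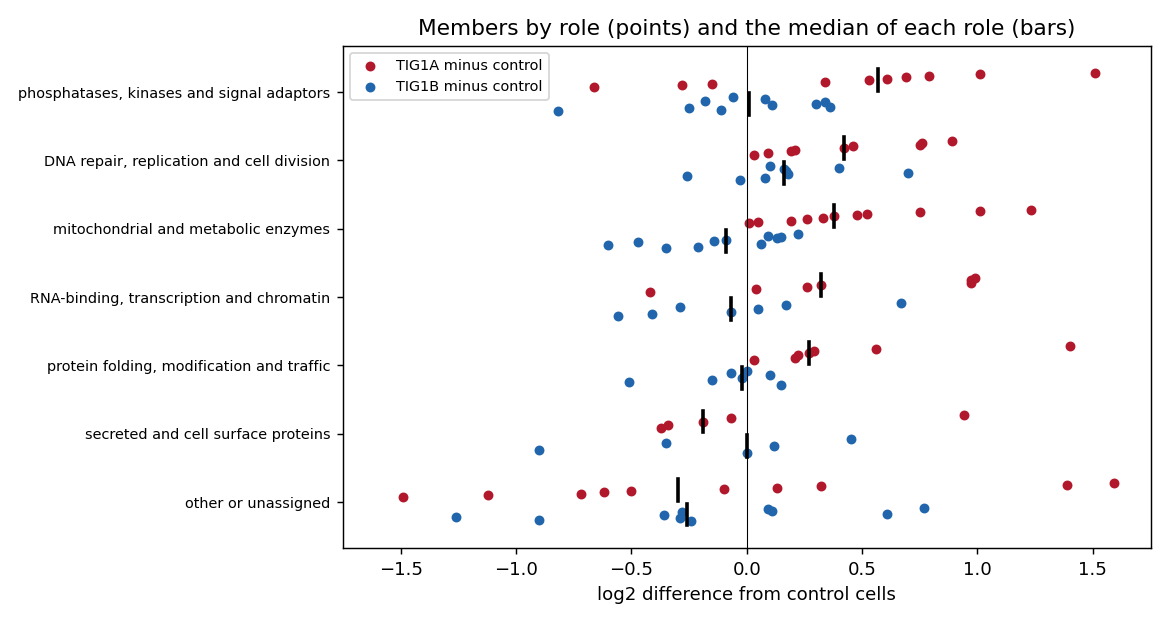
Log2 difference from control cells (horizontal axis) of each member by role (vertical axis), in TIG1A cells (red) and TIG1B cells (blue), with a black bar at the median of each role. The red medians are 0.572, 0.421, 0.382, 0.324 and 0.265 in the upper 5 roles and -0.190 and -0.298 in the lower 2.

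The remaining 10 members, which had no assigned role, had a median of -0.298 between TIG1A and control cells with 4 of 10 above 0 (against 47.7% of all genes). FANK1, a fibronectin and ankyrin repeat protein gene known from testis, had 170, 143 and 207 in TIG1A cells, 80.0, 51.4 and 81.9 in TIG1B cells and 103, 55.3 and 48.5 in control cells. It rose 2.63-fold relative to control cells (log2 difference 1.39, SE 0.33, adjusted p = 0.0483), with 2 of 3 control arrays and 1 of 3 TIG1B arrays below their array median. The difference from TIG1B cells was 1.30 (adjusted p = 0.161). All 4 non-coding members, LINC01561, EDRF1-DT, LINC03068 and LOC107984282, lay below 0 between TIG1A and control cells (against 52.3% of all genes), and none passed. EDRF1-DT had 37.5, 6.90 and 28.2 in TIG1A cells, all below the array median, 70.9, 19.1 and 71.7 in TIG1B cells and 29.2, 63.4 and 86.8 in control cells, so no fold is given. LOC107984282 was also below the median on all TIG1A arrays (58.9, 53.5 and 64.5), with 103, 81.3 and 106 in TIG1B cells and 89.4, 111 and 25.0 in control cells. LINC01561 had 31.1, 49.5 and 123 in TIG1A cells, 163, 16.6 and 18.7 in TIG1B cells and 82.6, 82.1 and 102 in control cells, and all groups overlapped. SCART1, a scavenger receptor family gene, had 36.2, 60.8 and 36.9 in TIG1A cells, 19.4, 117 and 56.4 in TIG1B cells and 76.9, 122 and 88.3 in control cells. TIG1A cells lay below control cells without overlap, 2 of 3 arrays of each TIG1 line were below their array median, and no fold is given. SCART1 passed the filter only through control cells, so nothing is read from its lack of overlap. C10orf143 had 56.9, 97.8 and 78.4 in TIG1A cells, 37.2, 50.6 and 42.6 in TIG1B cells and 38.8, 4.63 and 89.6 in control cells. TIG1A and control cells overlapped, all TIG1B arrays and 2 of 3 control arrays were below their array median, and no fold is given.

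The filter and the choice of probe set bear on these values. A total of 46 members reached the array median on all 9 arrays. C10orf143 passed only through TIG1A cells, EDRF1-DT only through TIG1B cells, and LINC01561 and SCART1 only through control cells. Among the 30 members above the median brightness of the 59 (a mean intensity of about 502), 28 lay above 0 between TIG1A and control cells. Measured genes as bright lay above 0 in 53.4% of cases. The medians were 0.362 for these members and 0.032 for genes as bright. Among the 29 dimmer members 17 lay above 0 (against 41.3% of genes as dim), with a median of 0.128 against -0.138 for genes as dim. Between TIG1A and TIG1B cells the medians were 0.327 and 0.404 for the brighter and the dimmer members, against 0.001 and 0.005 for all such genes.

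A further 52 kept probe sets belonged to 30 members. Of these, 32 lay above 0 between TIG1A and control cells (median 0.173) and 40 between TIG1A and TIG1B cells (median 0.248), and 19 lay above 0 between TIG1B and control cells (median -0.108). None passed in any comparison. Measured genes, each read from its brightest probe set, lay above 0 in 47.7%, 50.2% and 48.8% of cases in the same order. Of the 52, 33 had the sign of the brightest probe set of their gene between TIG1A and control cells. That number was 43 between TIG1A and TIG1B cells and 31 between TIG1B and control cells. A total of 5 pairs of members have overlapping annotated spans, ZRANB1 with CTBP2, BCCIP with DHX32, STK32C with LRRC27, TUBGCP2 with ZNF511 and MTG1 with SPRN. TUBGCP2 and ZNF511, whose closest annotated starts lie 42 bases apart on opposite strands, differed by 0.19 and 0.97 between TIG1A and control cells. Starts of STK32C and LRRC27 lie 313 bases apart on opposite strands, and these genes differed by 1.01 and 0.21. Those of IKZF5 and ACADSB lie 211 bases apart on opposite strands, and these genes differed by 0.32 and 0.33.

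The genes left out by name lie within the same stretch. GRK5, a G protein-coupled receptor kinase, had 5837, 6695 and 8240 in TIG1A cells, 1990, 2882 and 2908 in TIG1B cells and 1269, 627 and 1363 in control cells. FGFR2 differed by 0.75, RGS10 by 0.30 and MKI67 by -0.58 on the log2 scale between TIG1A and control cells. GRK5, BNIP3 and FGFR2 are, like ECHS1 and PAOX, in the study's table for TIG1A cells. Of the 31 genes of the stretch below the filter, 22 are protein-coding, among them HTRA1, EBF3, ADAM12 and ADAM8, and no direction is given for them.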

How the data were processed

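The deposited intensities, 1 for each probe set, had been computed by the authors in GeneChip Operating System 1.1.1 (GCOS) with global scaling to a target of 500; the later GeneSpring step of the methods had not been applied to them. The mean without the lowest and highest 2% was checked and is 500 on each array, and median intensities were 59.9 to 73.9. The description of the series gives MFP as 5 µM, where the labels and the methods give 5 nM. The amount of RNA labelled is also given differently.

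Control probe sets of the array (62) were removed. Probe sets at or above the median of their array on at least 2 of 3 arrays of a group were retained (29977 of 54675). The array annotation gives 1 symbol for 41091 probe sets, several for 1801 and none for 11721, and 41037 were matched to the RefSeq gene table (GRCh38.p14). The brightest retained probe set stood for each gene. Intensities were floored at 1 and log2-transformed. limma 3.58.1 in R 4.3.3 was fitted to all 9 arrays with a mean for each group (6 residual degrees of freedom, median prior 1.84), with Benjamini-Hochberg adjustment over all retained probe sets (threshold 0.05). The model was tested on simulated data. Precision is limited by the 3 arrays of each group. Intensities of different probe sets are not comparable with each other.

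The members, lists and role groups were chosen with earlier results of these data known. The genes named are all members that passed in any comparison, up to 4 members per role with the smallest p, the 2 largest and 2 smallest differences of each comparison, and the 2 first, 2 last and 2 adjacent genes; the other members complete their role groups. Alternatives were quantile normalisation, median centring of the arrays, addition of 50 before the logarithm, the 75th percentile or no limit as the filter, fits of only the 6 arrays in a comparison, a replicate block, trend and robust eBayes, the methods' t-test, averaging of a gene's probe sets and omission of single arrays. Omission of the first arrays of both TIG1 lines, choice of the brightest probe set before the filter, protein-coding members alone, and omission of ECHS1 and PAOX were added after seeing the data.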

Additional observations from a re-analysis of the deposited data

Results flagged for a closer look

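The difference between the lines was itself tested and passed for 2 members. PPP2R2D was higher in TIG1A cells than in TIG1B cells by 1.58 on the log2 scale (limma, adjusted p = 0.0370), on 3 of 3 TIG1A arrays. The other, dimmer probe set of PPP2R2D differed by 0.42 (limma, adjusted p = 0.681). With the mean over kept probe sets PWWP2B and ECHS1 were called in this comparison (against 0.552% of all genes), and PPP2R2D was not. PWWP2B was higher in TIG1A cells than in TIG1B cells by 1.27 on the log2 scale (limma, adjusted p = 0.0270), on 3 of 3 TIG1A arrays. Over the alternatives the adjusted p of this difference ranged from 0.00297 to 0.255 for PPP2R2D and from 0.00203 to 0.211 for PWWP2B. The stretch was chosen on the TIG1A arrays, so this comparison is not independent of that choice.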

How the results depend on the processing

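The median differences kept their direction between TIG1A and control cells and between TIG1A and TIG1B cells under all alternatives that gave one, and the counts of called members did not keep their size. Between TIG1A and control cells the median was 0.456 after centring each array on its median, 0.382 with a filter at the 75th percentile (37 members) and 0.235 with the mean over kept probe sets. Centring moved the median of all genes from -0.031 to 0.134, so that the members lay 0.322 above it under both scalings, and 672 of 839 called genes were then higher, against 453 of 939. Between TIG1B and control cells the median was 0.148 after centring and 0.058 with the filter at the 75th percentile. Between TIG1A and TIG1B cells it was 0.311 with an offset of 50. Leaving out 1 array gave medians of 0.257 to 0.361 between TIG1A and control cells, -0.053 to 0.026 between TIG1B and control cells and 0.338 to 0.385 between TIG1A and TIG1B cells.

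The members called higher between TIG1A and control cells numbered 16 of 37 with the filter at the 75th percentile (12.9% of all genes). They numbered 17 with trend and robust eBayes (7.45%) and 12 after centring (5.02%) or with the offset (4.82%). Without the first arrays of both TIG1 lines 1 was called (CHST15, 0.455%). None was called with no filter (0.0672%), the 6 arrays compared alone (0.276%) or the methods' t-test after adjustment (0.284%). By the methods' t-test at its unadjusted threshold 21 were higher and 2 lower (11.5% and 12.3% of all genes). The stretch was chosen from this comparison, so nothing is read from these shares. Between TIG1A and TIG1B cells the members called higher numbered 6 with the filter at the 75th percentile (2.73% of all genes). With trend and robust eBayes they also numbered 6 (1.46%), with the offset 3 (0.627%) and after centring 1 (0.157%). None was called with no filter (0%), the 6 arrays alone (0.00746%), the adjusted methods' t-test (0.202%) or without the first arrays of both lines (0%). The unadjusted t-test there gave 30 higher and 1 lower (10.1% and 9.63% of all genes). The TIG1A arrays were used to choose the stretch, so nothing is read from these shares either. Between TIG1B and control cells 1 was called higher (TACC2) and 1 lower (TIAL1) with the filter at the 75th percentile (4.89% and 6.93% of all genes) and with trend and robust eBayes (2.64% and 3.53%), and 3 and 3 by the unadjusted t-test (7.59% and 9.51%). Leaving out 1 array gave 0 to 12 called higher between TIG1A and control cells (0.478% to 6.17% of all genes). It gave 0 to 2 between TIG1A and TIG1B cells (0% to 0.455%) and 0 to 1 between TIG1B and control cells (0.0373% to 1.88%). The cause of these changes was not tested.

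Same-numbered arrays did not pair throughout, since the correlation of their deviations was 0.192 for the first arrays of TIG1A and TIG1B cells and between -0.0369 and 0.0644 for the other pairs. With a replicate block, 3 members (PPP2R2D, PWWP2B and ECHS1) were called higher between TIG1A and control cells (1.30% of all genes). Between TIG1A and TIG1B cells 0 were called (0% of all genes). Of 1102 values of 47 single-member differences under the alternatives, 112 no longer passed, 58 newly passed and 932 stayed on their side of the threshold. The sign differed in at least 1 alternative for 9 of the differences, none of which had passed.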

Other observations

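Dimmer probe sets of several members are given here beside the ones described above. On the second probe set of CYP2E1 the intensities were 115, 78.5 and 55.2 in TIG1A cells, 2.67, 9.64 and 16.2 in TIG1B cells and 43.8, 46.7 and 48.1 in control cells. The 3 groups did not overlap there, but all TIG1B and control arrays were below their array median, so no fold is given. That probe set passed the filter only through TIG1A cells, so nothing is read from its lack of overlap. The dimmest probe set of INPP5F had 55.4, 92.9 and 57.8 in TIG1A cells, 158, 145 and 121 in TIG1B cells and 103, 120 and 107 in control cells (TIG1A minus TIG1B -1.07, limma, adjusted p = 0.109). A second probe set of ACADSB, the gene of a mitochondrial acyl-CoA dehydrogenase, had 486, 429 and 399 in TIG1A cells, 206, 301 and 334 in TIG1B cells and 188, 289 and 295 in control cells (TIG1A minus control 0.79, limma, adjusted p = 0.0984). The brightest probe set of ACADSB differed by 0.33 in the same comparison (limma, adjusted p = 0.424). The dimmer probe sets given here were singled out after their values were seen.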
